A study of Mus musculus with 10 samples.

Results

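The circadian clock genes were examined in the calf muscle of 10 mice fed with or without added L-carnitine. The list held 10 genes, chosen by name: Arntl (also called Bmal1), Clock, Per1, Per2, Per3, Cry1, Cry2, Nr1d1, Nr1d2 and Dbp. It was drawn up with earlier results of these data known. A gene counted as measured where a probe set of the array carried its symbol and no other, which left 9 of the 10 members among 22180 genes measured in all. The probe set of Per2 also carries the symbol of another gene, so Per2 has no value here. Each of the 9 members had 1 such probe set.

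Gastrocnemius RNA was taken from male NMRI mice, an outbred stock, and hybridised to Affymetrix Mouse Gene 2.0 ST arrays, 1 array per mouse. The control group (5 arrays) ate a basal diet of natural ingredients whose own carnitine was below 5 mg per kg. The carnitine group (5 arrays) ate the same diet with an added 1000 mg of L-carnitine per kg. All mice started as 3-week-old animals, fed freely, lived in cages of 5 with lights on from 7 to 19 h, and were killed at 9, 15 or 18 months. The labels do not tell which of these ages an array mouse had, and the hour of killing is not given in the sources used here, so neither could be set against the clock genes.

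The mammalian clock is a loop of transcription. ARNTL and CLOCK pair up and bind E-box sequences, which switches on the Per, Cry, Nr1d1, Nr1d2 and Dbp genes. The PER and CRY proteins return to the nucleus and silence ARNTL and CLOCK, while REV-ERB alpha and beta, encoded by Nr1d1 and Nr1d2, silence Arntl by binding ROR response elements (ROREs). DBP binds D-box sequences in further genes. In muscle as in other tissues Arntl and Dbp therefore peak at different times of day, and the level of each gene in a single sample depends on the hour.

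These binding sequences are shown in the promoters of 4 members whose levels are described below. RefSeq windows of 300 bases (250 before and 50 after a transcript start, build GRCm38.p6, C57BL/6J reference and so not the NMRI sequence) were searched on both strands. The motifs were the E-box CACGTG, its E′ form CACGTT, the D-box TTATGTAA or TTACGTAA, and the RORE. The RORE was an 11-base form: A or T, A, A or T, any base, T, A or G, then GGTCA. Capitals mark each match, and an E′ match on the other strand reads AACGTG. The Arntl window (chr7:113207261-113207560, plus strand, the second of 2 windows) has a RORE 27 bases after the start. A similar stretch earlier in that window, aaagtaggtta, ends in GGTTA and so was neither counted nor marked. That of Per3 (chr4:151044616-151044915, minus strand) has D-boxes 205 and 158 bases before the start. The Per1 window (chr11:69098699-69098998, plus strand, the first of 2) has an E-box 166 bases before the start. Cry1 (chr10:85185005-85185304, minus strand) has an E-box 60 and an E′ match 79 bases before it.
Arntl: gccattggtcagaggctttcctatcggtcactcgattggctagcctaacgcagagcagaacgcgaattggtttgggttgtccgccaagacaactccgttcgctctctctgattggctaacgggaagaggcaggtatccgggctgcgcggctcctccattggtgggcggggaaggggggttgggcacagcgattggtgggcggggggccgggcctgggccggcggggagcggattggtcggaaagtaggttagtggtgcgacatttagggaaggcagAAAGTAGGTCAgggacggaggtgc
Per3: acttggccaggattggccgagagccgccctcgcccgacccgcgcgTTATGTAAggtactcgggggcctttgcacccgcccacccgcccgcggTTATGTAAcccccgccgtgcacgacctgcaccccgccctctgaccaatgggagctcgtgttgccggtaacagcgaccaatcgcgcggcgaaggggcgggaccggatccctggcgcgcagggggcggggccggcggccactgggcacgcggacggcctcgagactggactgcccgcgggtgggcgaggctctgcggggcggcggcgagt
Per1: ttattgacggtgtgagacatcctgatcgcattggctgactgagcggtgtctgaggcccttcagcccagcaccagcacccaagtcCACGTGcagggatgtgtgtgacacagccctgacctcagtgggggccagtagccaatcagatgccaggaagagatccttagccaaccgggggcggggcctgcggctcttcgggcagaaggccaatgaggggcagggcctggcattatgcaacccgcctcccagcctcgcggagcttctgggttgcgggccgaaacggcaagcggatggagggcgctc
Cry1: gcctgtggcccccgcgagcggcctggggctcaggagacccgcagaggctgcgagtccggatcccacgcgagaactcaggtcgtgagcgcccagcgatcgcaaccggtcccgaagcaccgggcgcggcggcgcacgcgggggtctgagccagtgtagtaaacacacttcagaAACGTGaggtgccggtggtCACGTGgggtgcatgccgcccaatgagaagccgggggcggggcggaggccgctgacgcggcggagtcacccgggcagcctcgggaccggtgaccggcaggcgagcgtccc
Of the 9 measured members, 2 had an E-box in a window (Per1 and Cry1), 3 an E′ match (Cry1, Cry2 and Nr1d1), 1 a D-box (Per3) and 1 a RORE (Arntl). Counted the same way, by gene, 8.09% of all 27025 genes of the table had the E-box in a window, 5.44% the E′ form, 1.23% the D-box and 0.459% the RORE. By window, the shares of all 32851 were 7.15%, 4.68%, 1.06% and 0.384%. Clock, Nr1d2 and Dbp had no match in their windows, which says only that these letters are not there.

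The tissue matched its label: all 12 skeletal muscle fibre markers, such as Acta1 and Myh4, were above the median gene, with a mean log2 value from 13.07 to 13.17 over the mice. All values are deposited RMA log2 values, in which a step of 1 is a doubling, and in this whole-tissue RNA fewer cells of a type and less RNA per cell cannot be told apart. The array of control replicate 5 differed from the rest: its values had an interquartile range of 2.20 log2 units, against 2.39 to 2.59 on the other 9. Slow fibre markers, the genes of oxidative fibres, spread widely, with mean levels from 9.19 to 10.06 in control and 7.16 to 9.79 in carnitine, and 9 of 11 were lower in carnitine at an unadjusted limma p below 0.05, beside 3.83% of all genes (0 after adjustment). Exact permutation tests gave these 11 markers p from 0.0556 to 0.222, so 0 of them passed 0.05 there. T cell markers lay from 5.06 to 5.84, with 0 of 6 at or above the median gene. All 9 clock genes lay above the median probe set level of 5.80, so none of them was dim.

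No clock gene passed the test for a difference between the diets. Of the 9 measured members, 0 passed an adjusted p of 0.05 in limma (background 0% of all genes), and 0 had an unadjusted p below 0.05, where 6.97% of all genes did. The lowest adjusted p was 0.722, and exact permutation tests over the 252 splits of the arrays gave p from 0.222 to 0.992. In every member the control and carnitine ranges overlapped (1.11% of all genes did not overlap). The 95% confidence intervals leave room for differences of over 0.5 log2 units in Arntl, Per1, Cry2 and Dbp, and of at most 0.499 in the other 5.

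**Figure D1:**
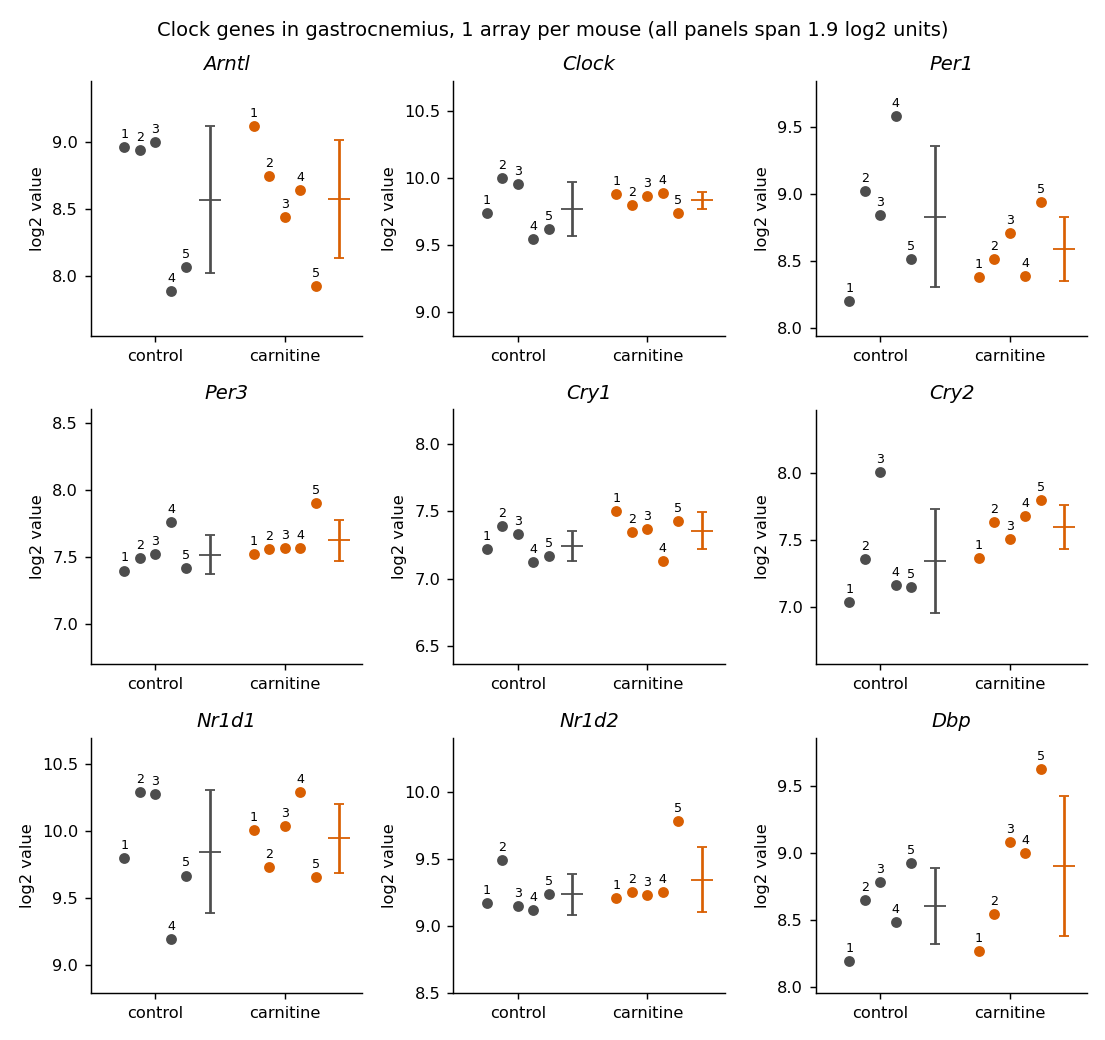
Log2 values of the 9 measured clock genes in each mouse (points, labelled with the replicate number), with the mean and SD of each diet group beside them (n = 5 per group). The groups overlap in every panel, and Arntl, Per1, Nr1d1 and Dbp spread over more than 1 log2 unit while Clock, Cry1 and Per3 spread over 0.5 or less.

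Arntl encodes the partner that the loop cannot run without. Its log2 values were 8.96, 8.94, 9.00, 7.89 and 8.07 in control replicates 1 to 5, and 9.12, 8.75, 8.44, 8.64 and 7.93 in carnitine replicates 1 to 5. Both groups thus held low mice, control replicates 4 and 5 and carnitine replicate 5, more than 0.3 units below all others. The group means were 8.57 ± 0.55 and 8.58 ± 0.44 (SD, n = 5 each), a difference of 0.004 (SE 0.244, 95% interval -0.518 to 0.526, limma adjusted p = 0.995), and its sign turned under cyclic loess. From the lowest to the highest mouse Arntl covered a 2.35-fold range.

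Clock, which encodes the other protein of the activator pair, varied far less. It read 9.74, 10.00, 9.96, 9.55 and 9.62 in the control mice and 9.88, 9.80, 9.87, 9.89 and 9.74 in the carnitine mice. The same control replicates, 4 and 5, were the lowest. The difference was 0.06 (SE 0.0966, limma adjusted p = 0.867) and became -0.04 after cyclic loess. Npas2, a relative of Clock that can replace it as the partner of ARNTL, averaged 6.23 ± 0.25 and 6.30 ± 0.28 (SD, n = 5), a difference of 0.07 that was -0.003 with array weights.

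The period genes encode the repressors that set the pace of the loop, and Per1 also answers to glucocorticoids. Per1 read 8.20, 9.02, 8.84, 9.58 and 8.51 in control and 8.38, 8.51, 8.71, 8.39 and 8.94 in carnitine. Control mice gave both the lowest and the highest value, and every carnitine mouse lay between them. The difference was -0.24 (SE 0.205, 95% interval -0.682 to 0.194, limma adjusted p = 0.757). It was -0.40 without control replicate 1 and -0.06 without control replicate 4, with adjusted p of 0.603 and 0.964.

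Per3 kept to 7.40 to 7.57 in 8 of the 10 mice. The exceptions were control replicate 4 at 7.76 and carnitine replicate 5 at 7.90, which are also the mice with the lowest Arntl. The group means were 7.52 ± 0.14 and 7.62 ± 0.16 (SD, n = 5), a difference of 0.11 (SE 0.100, limma adjusted p = 0.787).

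The cryptochromes Cry1 and Cry2 encode the strongest repressors of the loop. Cry1 lay between 7.12 and 7.50 in all 10 mice, a 1.30-fold range, with a difference of 0.11 (SE 0.0933). Cry2 read 7.04, 7.36, 8.01, 7.17 and 7.15 in control and 7.37, 7.64, 7.51, 7.68 and 7.80 in carnitine. Every carnitine mouse was above 4 of the 5 controls, and control replicate 3 was above every carnitine mouse. The difference was 0.25 (SE 0.158, limma adjusted p = 0.722). Without control replicate 3 it was 0.42, with an adjusted p of 0.581.

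Nr1d1, encoding REV-ERB alpha, read 9.80, 10.29, 10.28, 9.20 and 9.67 in control and 10.01, 9.73, 10.04, 10.29 and 9.66 in carnitine. The lowest mouse was control replicate 4, and the highest mice of the 2 diets were equal. The means were 9.85 ± 0.46 and 9.95 ± 0.26 (SD, n = 5), a difference of 0.10 (SE 0.187, limma adjusted p = 0.894) that became -0.01 after cyclic loess. Its relative Nr1d2, encoding REV-ERB beta, lay between 9.12 and 9.49 in 9 mice and at 9.78 in carnitine replicate 5. Nr1d2 differed by 0.11 (SE 0.117, limma adjusted p = 0.804), by 0.004 after cyclic loess and by 0.001 without carnitine replicate 5.

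Dbp, the D-box activator and a direct output of the loop, had the widest range of the members, 2.69-fold from end to end. It read 8.19, 8.65, 8.78, 8.48 and 8.92 in control and 8.27, 8.54, 9.08, 9.00 and 9.62 in carnitine. Carnitine replicates 3, 4 and 5 were above every control, and replicates 1 and 2 were within the control range. The means were 8.60 ± 0.28 and 8.90 ± 0.52 (SD, n = 5), a difference of 0.30 or 1.23-fold (SE 0.210, 95% interval -0.152 to 0.748, limma adjusted p = 0.731). Without carnitine replicate 5 the difference was 0.12, and without carnitine replicate 1 it was 0.46, with adjusted p of 0.888 and 0.900.

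Of the 9 differences, 8 were positive (carnitine above control), against 47.7% of all genes, and their median was 0.11, against -0.01 over all genes. After cyclic loess 5 were positive and 4 negative with a median of 0.00, so the direction of the list depended on the scaling. After median centring 8 of 9 were positive, with a median of 0.16, beside 62.3% of all genes.

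**Figure D2:**
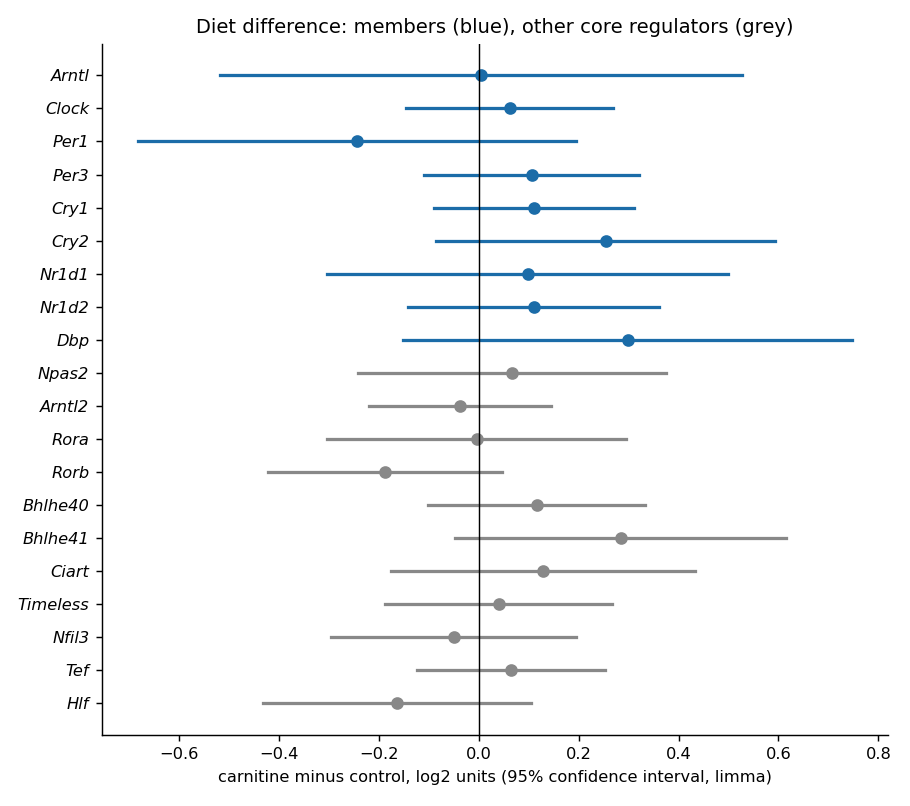
Difference between the diets in log2 units (carnitine minus control, point) with its 95% confidence interval from limma (line) for the 9 members in blue and 11 other core clock regulators in grey, over 5 mice per diet. Every interval includes 0, from -0.682 to 0.194 for Per1 up to -0.152 to 0.748 for Dbp.

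The other core regulators also held no gene past the test. Of 12 listed, 11 were measured, 6 with a positive and 5 with a negative difference (8 and 3 after median centring, 7 and 4 after cyclic loess), and 0 had an unadjusted p below 0.05. Bhlhe41 and Bhlhe40, which encode the E-box repressors DEC2 and DEC1, differed by 0.28 (SE 0.155) and 0.12 (SE 0.102). Ciart, encoding the repressor CHRONO, differed by 0.13 (SE 0.142). Among the activators and repressors at ROREs and D-boxes, Rora differed by -0.004, Rorb by -0.19, Nfil3 by -0.05, Tef by 0.06 and Hlf by -0.16. Timeless differed by 0.04 and the Arntl paralog Arntl2 by -0.04. The signs of Rora, Nfil3, Timeless, Arntl2 and Npas2 turned under at least 1 other scaling, weighting or omission of an array.

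Genes of clock protein turnover set how long PER and CRY last. Of 10 listed, 8 were measured, 7 with a positive difference (5 after cyclic loess), and 1 had an unadjusted p below 0.05. Over all genes 47.7% were positive (50.7% after cyclic loess) and 6.97% had an unadjusted p below 0.05. The 1 gene of the list was Btrc, which encodes the ubiquitin ligase subunit that marks PER proteins for breakdown. Its mean was 8.53 ± 0.22 (SD, n = 5) in the control mice and 8.78 ± 0.07 (SD, n = 5) in the carnitine mice, with 4 of 5 carnitine mice above every control and a difference of 0.25 (SE 0.102, limma adjusted p = 0.712). Skp1 and Cul1, parts of the same ligase complex, differed by 0.16 and 0.21. Fbxl21, which stabilises cryptochromes, differed by -0.22 at a mean level under that of the median probe set.

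Of 16 clock-controlled genes of muscle, 14 were measured, with 8 positive and 6 negative differences (11 and 3 after median centring, 4 and 10 after cyclic loess). Wee1, a cell cycle kinase gene, differed by 0.39 (SE 0.165, limma adjusted p = 0.712) and was the 1 gene of the list with an unadjusted p below 0.05, and Nampt, of NAD synthesis, differed by 0.18. Glucocorticoid-induced genes had 4 positive and 9 negative differences in 13 (7 and 6 after median centring, 4 and 9 after cyclic loess). Zbtb16 at -0.38 (SE 0.143, limma adjusted p = 0.712) was the 1 member of that list with an unadjusted p below 0.05. Foxo1 differed by -0.21 and Tsc22d3 by 0.15. These counts, 1 of 14 and 1 of 13, stand beside 6.97% of all genes. None of 15 immediate early genes and 7 temperature-responsive genes had an unadjusted p below 0.05. Immediate early genes had 6 positive and 9 negative differences (10 and 5 after median centring, 7 and 8 after cyclic loess). All 7 temperature-responsive genes were positive, also after median centring, but 4 positive and 3 negative after cyclic loess. Over all genes 47.7% were positive, 62.3% after median centring and 50.7% after cyclic loess. The heat shock gene Hspa1b, at 7.55 ± 1.07 and 8.02 ± 0.99 (SD, n = 5), had an SD within each diet above its diet difference of 0.48.

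The clock genes fell into widely and narrowly varying ones. The SD within diet groups was 0.494 for Arntl, 0.419 for Dbp, 0.407 for Per1, 0.370 for Nr1d1 and 0.299 for Cry2. These 5 of the 9 lay above percentile 90 of all 22180 genes, and Arntl lay at percentile 99.1. Nr1d2 (0.203) was at percentile 64.8. Per3 (0.150), Clock (0.149) and Cry1 (0.126) lay at percentiles 34.3, 33.7 and 20.6, below the median gene. These are descriptions of the same mice and carry no test.

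Over the 10 mice the members did not move as a single block. Of the 36 pairs, 27 had a positive and 9 a negative Pearson correlation, and 1 pair passed an adjusted permutation p of 0.05: Clock and Nr1d1. Arntl was positive with Clock and Nr1d1 and negative with Per1, Per3, Nr1d2 and Dbp. Dbp was positive with Nr1d2, Per3 and Cry2 and near 0 with Clock and Nr1d1. Of the 36 values, 3 reached 0.7 in size, those among Arntl, Clock and Nr1d1. Over all other genes the share that reached 0.7 in size was 7.45% with Arntl, 8.02% with Clock, 1.28% with Per1, 1.19% with Per3 and 9.69% with Cry1. It was 3.6% with Cry2, 2.27% with Nr1d1, 3.49% with Nr1d2 and 1.83% with Dbp.

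**Figure D3:**
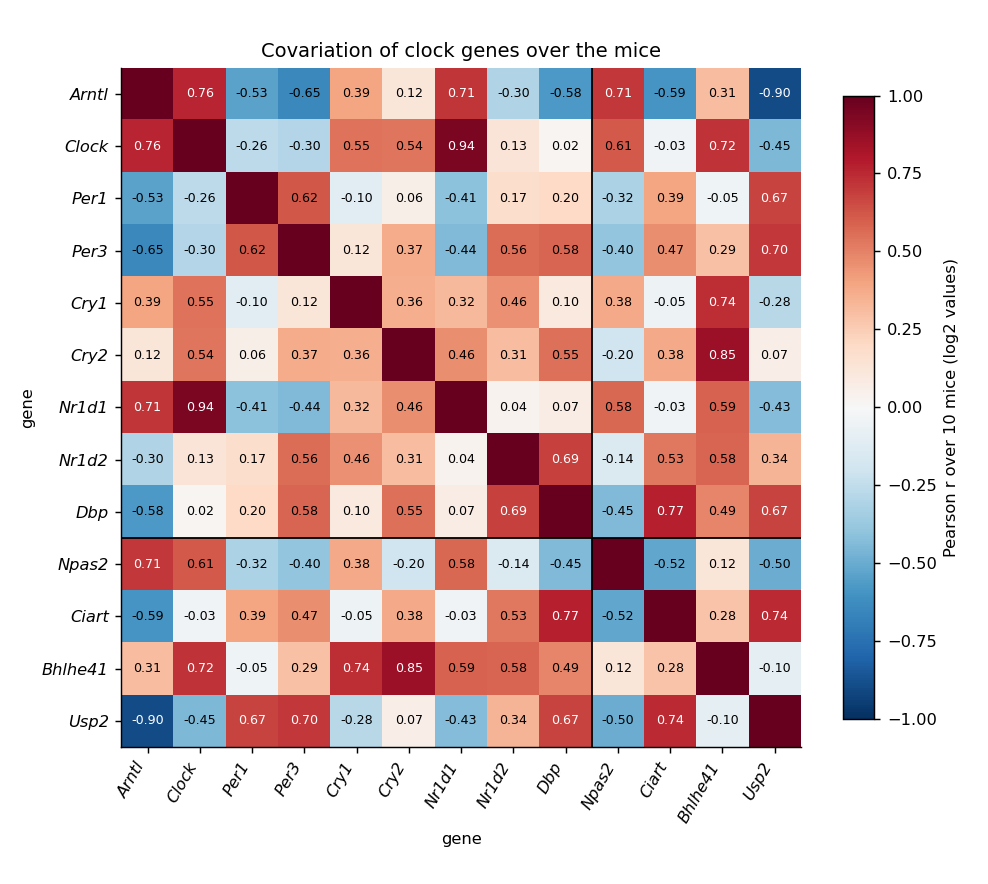
Pearson correlation over the 10 mice between log2 values of the 9 members and, beyond the black lines, 4 further clock genes (colour scale from -1 to 1, values printed in the cells). Clock and Nr1d1 reach 0.94 and Arntl and Usp2 reach -0.90, while Dbp with Clock is at 0.02.

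Clock and Nr1d1 had r = 0.94 and Spearman's rho = 0.93 (permutation p = 3e-05 and 0.00032, adjusted over 36 pairs 0.00108 and 0.0115). The mice with high Clock, control replicates 2 and 3 and carnitine replicate 4, had the highest Nr1d1, and control replicates 4 and 5 had low values of both. Without the 2 mice farthest from the Clock median r was 0.92, and with the diet means removed it was 0.94. It was 0.95 after cyclic loess and between 0.90 and 0.96 with any 1 mouse left out. Of the 22179 genes other than Clock, Nr1d1 had the highest r with Clock, while Clock ranked 3 among all genes by r with Nr1d1.

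Arntl followed the same mice less closely. Its r was 0.76 with Clock (rho = 0.66, permutation p = 0.0119 and 0.0411, adjusted p = 0.215 and 0.487) and 0.71 with Nr1d1 (rho = 0.60, permutation p = 0.0218 and 0.0701, adjusted p = 0.262 and 0.487). Without the 2 mice farthest from the Arntl median these were 0.63 and 0.42. In size, 3.36% of all genes were correlated with Arntl at least as much as Clock was, and 6.43% at least as much as Nr1d1 was.

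In size, 12.6% of all genes were correlated with Arntl at least as much as Per3 was. Arntl and Per3 ran in opposite directions, with r = -0.65 (rho = -0.60, permutation p = 0.040 and 0.0701, adjusted p = 0.288 and 0.487). It was -0.55 without control replicate 4 and -0.49 without carnitine replicate 5. Without both, the 2 mice farthest from the Arntl median, r was 0.09, with control replicate 5 still included. Control replicate 5, the array with the narrow range, broke the pattern, with a low Arntl of 8.07 and a low Per3 of 7.42. Without it r was -0.90 (exact permutation, adjusted p = 0.0357). With any other mouse left out instead, the adjusted p by the same test was 0.295 to 0.556. The p of 0.0357 was not adjusted over these omissions and follows removal of the discordant mouse, so it cannot decide whether the pair holds. After cyclic loess of all 10 arrays r was -0.93 (permutation, adjusted p = 0.0027), and after median centring it was -0.22 (adjusted p = 0.798). The array's part in these values was not tested further.

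Arntl and Dbp, the classical opposite phases, had r = -0.58 and rho = -0.50 (permutation p = 0.0797 and 0.144, adjusted p = 0.312 and 0.487). Without the 2 mice farthest from the Arntl median r was -0.69, and without the 2 farthest from the Dbp median, control replicate 1 and carnitine replicate 5, it was -0.28. With diet means removed it was -0.62, and over all omissions of 1 mouse it ran from -0.83 (without control replicate 4) to -0.37 (without carnitine replicate 5). In size, 21.0% of all genes were correlated with Arntl at least as much as Dbp was, so this value is not unusual on these arrays. Control replicate 1 and carnitine replicate 1 had the lowest Dbp with high Arntl, and carnitine replicate 5 had the highest Dbp with low Arntl. Nr1d1, which ARNTL and CLOCK switch on as they do Dbp, did not share the negative sign. Its r was 0.71 with Arntl and 0.07 with Dbp, so the members as a set did not show opposite phases. The reason was not tested.

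Among the other targets of the loop, Dbp and Nr1d2 had r = 0.69 (rho = 0.55, permutation p = 0.0386 and 0.103, adjusted p = 0.288 and 0.487). This rested on carnitine replicate 5, since without that mouse r was 0.19. Per1 and Per3 had r = 0.62 (rho = 0.48, permutation p = 0.0598 and 0.158, adjusted p = 0.312 and 0.487). With diet means removed their r was 0.84 (exact permutation within diets, adjusted p = 0.0325). Without the 2 mice farthest from the Per3 median the r of all mice was 0.26.

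The members were also set against the 19 other clock genes, 171 pairs in all, of which 0 passed an adjusted permutation p of 0.05 by Pearson's r and 1 by Spearman's rho. That pair was Arntl and Usp2, a deubiquitinase gene under strong clock control. Usp2 read 10.09, 10.36, 10.26, 10.67 and 10.50 in control and 10.20, 10.27, 10.53, 10.46 and 10.62 in carnitine, highest in control replicate 4 and carnitine replicate 5, where Arntl was lowest. The correlation was r = -0.90 and rho = -0.94 (permutation p = 0.00048 and 0.00018, adjusted over 171 pairs 0.0821 and 0.0308). After cyclic loess r was -0.88 (permutation, adjusted p = 0.197). On the deposited values r was -0.80 without the 2 mice farthest from the Arntl median, and between -0.93 and -0.86 with any 1 mouse left out. In size, 0.131% of all genes were correlated with Arntl at least as much.

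Dbp was nearest to Ciart among these genes, with r = 0.77 and rho = 0.75 (permutation p = 0.00701 and 0.0142, adjusted p = 0.249 and 0.294), and 0.66 without the 2 mice farthest from the Dbp median. Cry2 was nearest to Bhlhe41, with r = 0.85 and rho = 0.72 (permutation p = 0.00186 and 0.0222, adjusted p = 0.159 and 0.308), and 0.81 without the 2 mice farthest from the Cry2 median. Arntl and Npas2 had r = 0.71 and rho = 0.68 (permutation p = 0.0297 and 0.0353, adjusted p = 0.276 and 0.342), and 0.62 without the 2 farthest mice. In size, 6.78% of all genes were correlated with Arntl at least as much as Npas2 was. Further pairs of the 171 had a larger r than Arntl and Npas2. Cry2 with Tef and Nr1d2 with Cul1 were among them (both r = 0.77, permutation, adjusted p = 0.249).

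**Figure D4:**
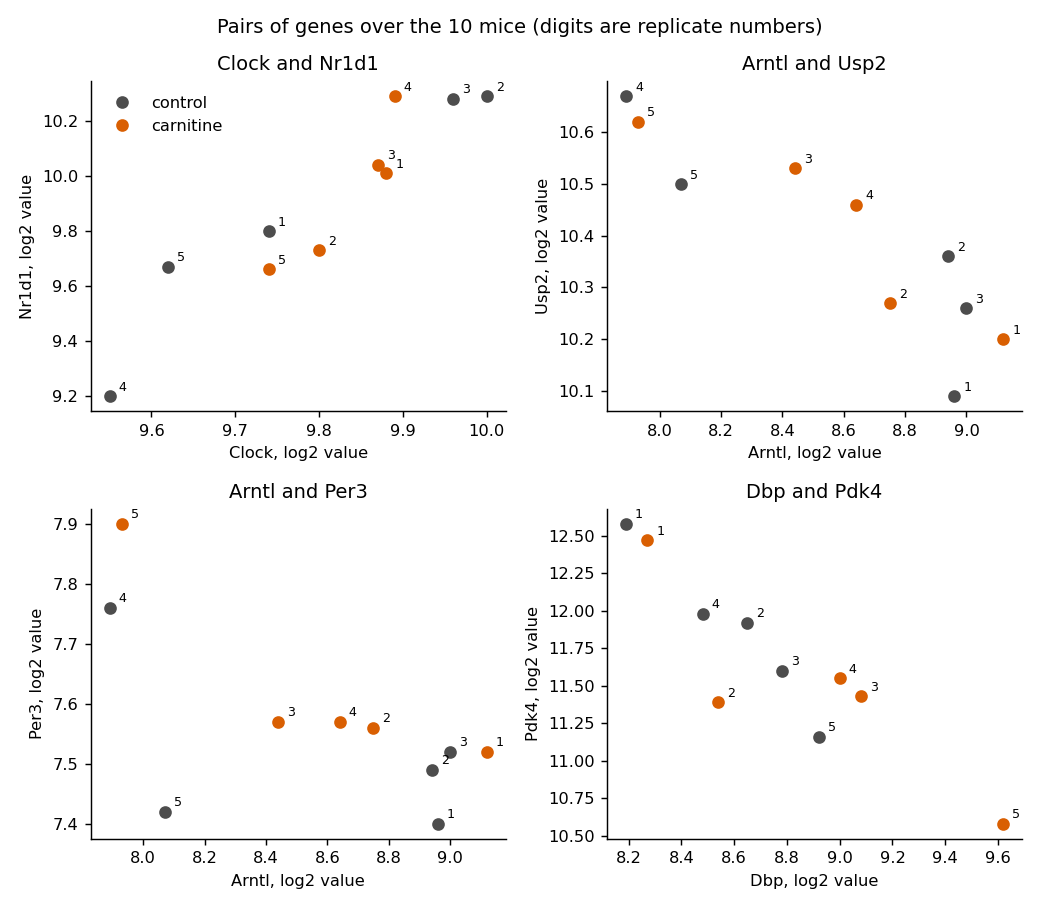
Log2 values of 4 pairs of genes in the 10 mice, control in grey and carnitine in orange, with replicate numbers beside the points. Clock and Nr1d1 rise together (r = 0.94), Arntl and Usp2 run opposite (r = -0.90), Arntl and Per3 do so except in control replicate 5, and Dbp and Pdk4 run opposite (r = -0.91), with both diets along the same course.

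Genes most like Arntl and Dbp were then taken from the 10275 named genes at or above the median level, by Pearson r over the 10 arrays, with no test since they are the extremes of a ranking. The highest with Arntl were Slc16a9, a member of the monocarboxylate transporter family (r = 0.94), the receptor kinase gene Grk5 (0.93), Colgalt1 (0.93), Dnajc14 (0.92) and Sash1 (0.92). The lowest were Kcnip3, which encodes a calcium-binding protein (-0.94), Cmtm5 (-0.92), Cenpm (-0.91), Usp2 (-0.90) and Diras1 (-0.90). After cyclic loess these 10 values were from 0.79 to 0.92 and from -0.91 to -0.82.

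The highest with Dbp were Pdia5 (r = 0.90), Niban2 (0.89), the chromatin remodeller subunit gene Ino80c (0.87), the retinoic acid receptor gene Rarb (0.87) and the phosphatase gene Dusp5 (0.86). The lowest were Agap1 (-0.92), Hmgxb4 (-0.91), Pdk4 (-0.91), Abat (-0.89) and Bloc1s4 (-0.89). Pdk4 encodes the kinase that shuts off pyruvate dehydrogenase in fasting and was also on the list of clock-controlled genes. It read 12.58, 11.92, 11.60, 11.98 and 11.16 in control and 12.47, 11.39, 11.43, 11.55 and 10.58 in carnitine. The mice with the lowest Dbp, replicate 1 of each diet, had the highest Pdk4, and carnitine replicate 5, with the highest Dbp, had the lowest. After cyclic loess the 5 highest were from 0.76 to 0.92, and the 5 lowest from -0.91 (Pdk4) to -0.66 (Agap1). Without the 2 mice farthest from the Dbp median the 5 highest were from 0.64 (Ino80c) to 0.88 (Niban2). The 5 lowest were then from -0.77 (Agap1 and Pdk4) to -0.68 (Bloc1s4).

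Array range and cell type marker levels were set against the members, and their part in the correlations between genes was not tested. Of 81 relations between the 9 members and the interquartile range or 8 marker lists, 0 passed an adjusted permutation p of 0.05 and 12 had an unadjusted p below 0.05. The interquartile range had r = 0.64 with Arntl (rho = 0.64, permutation p = 0.0255 and 0.0526), 0.66 with Clock (rho = 0.49, permutation p = 0.0339 and 0.149) and 0.66 with Cry1 (rho = 0.78, permutation p = 0.0199 and 0.0109), each with an adjusted p of 0.236. Without the 2 arrays farthest from its median these were 0.46, 0.10 and 0.68. The slow fibre marker level had r = -0.72 with Nr1d2 (rho = -0.69, permutation p = 0.0268 and 0.0327, adjusted p = 0.236), and -0.37 without the 2 farthest mice. With Cry1 it had r = -0.66 (rho = -0.76, permutation p = 0.0349 and 0.0154, adjusted p = 0.236), and -0.77 without them. T cell marker level had r = -0.67 with Arntl (rho = -0.64, permutation p = 0.0200 and 0.0546), -0.68 with Clock (rho = -0.45, permutation p = 0.0254 and 0.192) and -0.66 with Cry1 (rho = -0.71, permutation p = 0.0256 and 0.0265), each with an adjusted p of 0.236. Without the 2 farthest mice these were -0.63, -0.71 and -0.58, and the T cell markers were all below the median gene. Endothelial marker level had r = 0.72 with Arntl and -0.68 with Dbp (rho = 0.59 and -0.73, permutation p = 0.0150 and 0.0333 for r and 0.0801 and 0.0207 for rho, each adjusted p = 0.236), and 0.53 and -0.73 without the 2 farthest mice. Schwann cell marker level had r = 0.82 with Nr1d2 (rho = 0.74, permutation p = 0.0164 and 0.0186, adjusted p = 0.236), and 0.47 without the 2 farthest mice. With Dbp it had r = 0.70 (rho = 0.47, permutation p = 0.0317 and 0.177, adjusted p = 0.236), and -0.03 without them.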

How the data were processed

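The values are RMA log2 values that the authors deposited, 34390 probe sets on each of 10 arrays, made with RMA in Affymetrix Expression Console per the submitters' processing notes (the sources used here give neither versions nor a genome build). RMA brings probes of all arrays to a shared intensity distribution, so differences in total RNA are not visible, and differences of dim probe sets are shrunken. Probe sets were named from the platform annotation: 23521 have 1 symbol, 1814 several and 9055 none. Only those with 1 symbol were used, per gene the one with the highest mean over all arrays, which left 22180 genes. A linear model of the 2 diets was fitted to all genes, unfiltered, and tested two-sided (limma 3.58.1, eBayes with trend, under R 4.3.3), with Benjamini-Hochberg adjustment over all genes. Correlations over the 10 mice were tested with 100000 two-sided permutations, or exactly where fewer values or within-diet permutations were used, and adjusted over their family. Since Per2 had no usable probe set, 36 pairs were tested in place of the 45 planned. The number of arrays limits the precision, and the median SE over all genes was 0.110.

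The members and lists were chosen with earlier results of these data known. The rule for named genes took every member and every other core regulator, up to 4 genes with the lowest p of each further list, and 5 genes per side most like Arntl and Dbp. Predicted genes, chemoreceptor genes and small noncoding RNAs were passed over. Genes discussed for their covariation (Usp2, Pdk4) fall under it, and Hspa1b with the marker genes was named as an example. Alternatives were a replicate block, median centring, cyclic loess, other variance models, array weights, a filter on dim genes, the mean of probe sets, and the omission of each array. The fit and the correlation test were tested on simulated data.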

Additional observations from a re-analysis of the deposited data

Results flagged for a closer look

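Of 80 groups of 5 mice checked (40 named genes in each diet), 7 held a mouse whose gap to the nearest other exceeded 0.71 of the group's range, and chance flags about 1 in 20. Among the members these were Per3 at 7.90 in carnitine replicate 5 (the other carnitine mice 7.52 to 7.57) and Nr1d2 at 9.78 in the same mouse (others 9.21 to 9.25). The same mouse had Bhlhe41 at 9.10, above the 8.69 to 8.77 of the other carnitine mice. In carnitine replicate 1, Ciart was low at 6.59 (others 7.09 to 7.22), and so was the stress gene Ddit4 at 5.24 (others 5.93 to 6.19). Btrc was 8.66 in carnitine replicate 4, under the 8.80 to 8.84 of the others. Arntl2 was 6.04 in control replicate 1, under the 6.13 to 6.15 of the other controls.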

How the results depend on the processing

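The count of members past the adjusted threshold was 0 under all alternatives run, and the lowest adjusted p of a member under any of them was 0.55. The labels do not say that mice with the same replicate number belong together. Across genes the deviations of same-numbered mice correlated from -0.13 to 0.24, over 0.1 in 3 of 5 pairs, and only 2 of 10 mice were closest to their own number in the other diet. With the replicate block 1 member (Dbp) had an unadjusted p below 0.05, and the correlation of Arntl with Dbp was 0.24. The block leaves 5 differences per gene. The correlation of Clock with Nr1d1 was then 0.95 with an adjusted exact permutation p of 0.30. So few differences allow too few orderings for a pair to pass on its own after adjustment. The block's count of 0 pairs past the adjusted threshold therefore cannot decide whether a pair holds. Leaving out 1 array gave 0 to 1 members with an unadjusted p below 0.05: Per1 without control replicate 1, Cry2 without control replicate 3 and Dbp without carnitine replicate 1. The count of pairs past the threshold was 2 with diet means removed (Per1 and Per3 added), 2 after median centring (Arntl and Clock added) and 2 after cyclic loess (Arntl and Per3 added), and 1 to 2 with 1 array left out. The correlation of Arntl with Dbp then ran from -0.83 to -0.37.

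Of 171 alternative values of the members' differences, 161 kept their direction and 10 turned, and the cause was not tested. After cyclic loess the difference was -0.095 in Arntl, -0.043 in Clock, -0.007 in Nr1d1, 0.003 in Arntl2 and -0.008 in Hspa8. After median centring it was 0.012 in Arntl2 and 0.046 in Rora, and with array weights -0.078 in Arntl and -0.003 in Npas2. With 1 array left out it ran from -0.166 to 0.166 in Arntl, -0.064 to 0.208 in Nr1d1, -0.027 to 0.143 in Npas2, -0.114 to 0.072 in Rora, -0.022 to 0.105 in Timeless and -0.134 to 0.028 in Nfil3. Every member was above the median probe set level, so dim signal limits none of them.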
